A study of Mus musculus with 8 samples.

Results

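Angptl4 encodes a secreted protein that inhibits lipoprotein lipase, the enzyme encoded by Lpl, and the genes described here are this inhibitor, its relatives Angptl2 and Angptl6, the lipase, the lipase's folding factor Lmf1, its capillary anchor Gpihbp1 and the lipoprotein receptor gene Vldlr. The genes were picked with earlier results of these arrays known, and all probes that carry their symbols were taken, whatever their values. These 7 genes are represented by 17 of the 45281 probes on the array, and 8 probes of 6 genes passed the filter on low signal, out of 17122 probes tested. All 8 of these probes were above background on all 8 arrays, so none passed through the signal of one group alone.

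Lipoprotein lipase releases fatty acids from the triglycerides of circulating particles, and macrophages make and secrete it. It folds in the endoplasmic reticulum with the help of Lmf1, and on capillaries it is held by Gpihbp1, a protein of endothelial cells. Angptl4 unfolds the enzyme and is a known target gene of the PPAR family of fatty acid sensors and of hypoxia signalling, whereas Angptl2 and Angptl6 share its overall protein design but are not known for blocking the lipase. Vldlr binds particles rich in triglycerides, and the lipase helps it to take them up.

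The cells were peritoneal macrophages elicited by thioglycollate, an irritant broth that draws monocyte-derived macrophages into the abdominal cavity, from C57/BL6 mice aged 8 weeks. In the Ac-LDL group they were cultured for 24 h with 120 µg/ml acetylated LDL, a chemically modified lipoprotein that scavenger receptors take up and that loads macrophages with cholesterol, and in the control group they were mock treated. Each group held 4 arrays from biological replicates numbered 1 to 4, and the labels do not say how many animals made up a replicate. All animals were of this 1 strain, and the labels name no altered gene in either group. The arrays numbered 1 and 2 in either group shared a slide, called slide 1 here, and those numbered 3 and 4 shared another, called slide 2.

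Between 16679 and 17439 probes per array had a detection p of at most 0.05, the limit used here for a signal above background, and a probe's signal was the mean of 43 to 44 beads at the median. All 7 macrophage markers examined, among them Cd68, Csf1r and the brightest, Lyz, were above background on all 8 arrays. Their summed signal above background was 38740 to 51297 in control and 39965 to 49570 in Ac-LDL arrays. The 5 fibroblast markers were also above background on all 8 arrays, led by Dcn at 8320 to 11984, with summed signals of 11078 to 15486 in control and 10624 to 12603 in Ac-LDL arrays. Of 4 mesothelial markers on the array, Upk3b and Upk1b were above background on all 8 arrays, and the list summed to 3940 to 6670 and 4056 to 4566. None of the 6 endothelial, 5 adipocyte and 4 eosinophil markers passed the filter, and 5, 3 and 4 of them respectively were at background on every array. Of 4 B cell markers 1 was tested, Ms4a1, and 2 were at background on every array, with sums of 12.5 to 32.0 and 15.5 to 29.2. Of 4 neutrophil markers, S100a8 was above background on all 8 arrays and the other 3 were at background throughout, with sums of 479 to 691 and 597 to 687. The summed ranges of the groups overlapped for every list. The sums are of deposited signals and follow the brightest markers, such as Lyz at 27924.5 to 36169.4, so they say little of the dimmer ones. Single markers did differ in level, since 4 of the 5 fibroblast markers had lower means with Ac-LDL. The groups did not overlap for Col1a2 (lower with Ac-LDL by a difference of -0.23) or for S100a8 (higher by 0.24). Among all tested probes 1.68% separated with the Ac-LDL arrays lower and 2.11% with them higher. None of these markers was called in any fit. Their part in the results below was not tested. In RNA from bulk cultures, fewer cells of a type and less RNA per cell cannot be told apart.

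The probes are 50 bases long, and their sequences show what the signals of Angptl4, Lpl and Vldlr rest on. The first 30 bases of the Angptl4 and Lpl probes that gave a signal are shown in lower case because they are the letters behind the main results. The deposited annotation places the first on chromosome 17 from 33912051 to 33912100 on the minus strand, at base 1578 of the transcript, and the second on chromosome 8 from 71430671 to 71430720 on the plus strand, at base 3889 of the transcript. The annotation names no genome build and no exon or UTR.

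Angptl4 ILMN_2759365: ccagaaaacatgggctcgaggggcactgaa
Lpl ILMN_2692723: gtgctaactttgtgtccgtctccatccatg

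Vldlr had 6 probes, and 4 of them form 2 overlapping pairs. In the first pair, at bases 3 and 5 of the transcript on chromosome 19 (27291924 to 27291973 and 27291926 to 27291975), the probes share 48 of 50 bases on the same strand, so that they measure nearly the same target and are not independent. Their first 30 bases are shown with the shared part in capitals.

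Vldlr ILMN_2515601: taCCAAGTATCTGTAACCCTTGAGCCCCTA
Vldlr ILMN_1218264: CCAAGTATCTGTAACCCTTGAGCCCCTAGA

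The second pair, at bases 182 and 230 of the transcript by the annotation, shares 49 bases, but on opposite strands. The annotation gives the plus strand for both, yet by these sequences they cannot both match the transcript. Capitals mark the letters that each probe shares with the reverse complement of the other.

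Vldlr ILMN_2458671: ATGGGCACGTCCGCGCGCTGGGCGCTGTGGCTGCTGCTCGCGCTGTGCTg
Vldlr ILMN_2494669: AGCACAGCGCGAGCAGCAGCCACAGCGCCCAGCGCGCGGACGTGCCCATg

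Both probes of the second pair were at background on all 8 arrays, with signals of 35.4 to 47.5 for ILMN_2458671 and 33.1 to 40.0 for ILMN_2494669. The probes that lay at background are accounted for first, because they limit what can be said of each gene.

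**Figure D1:**
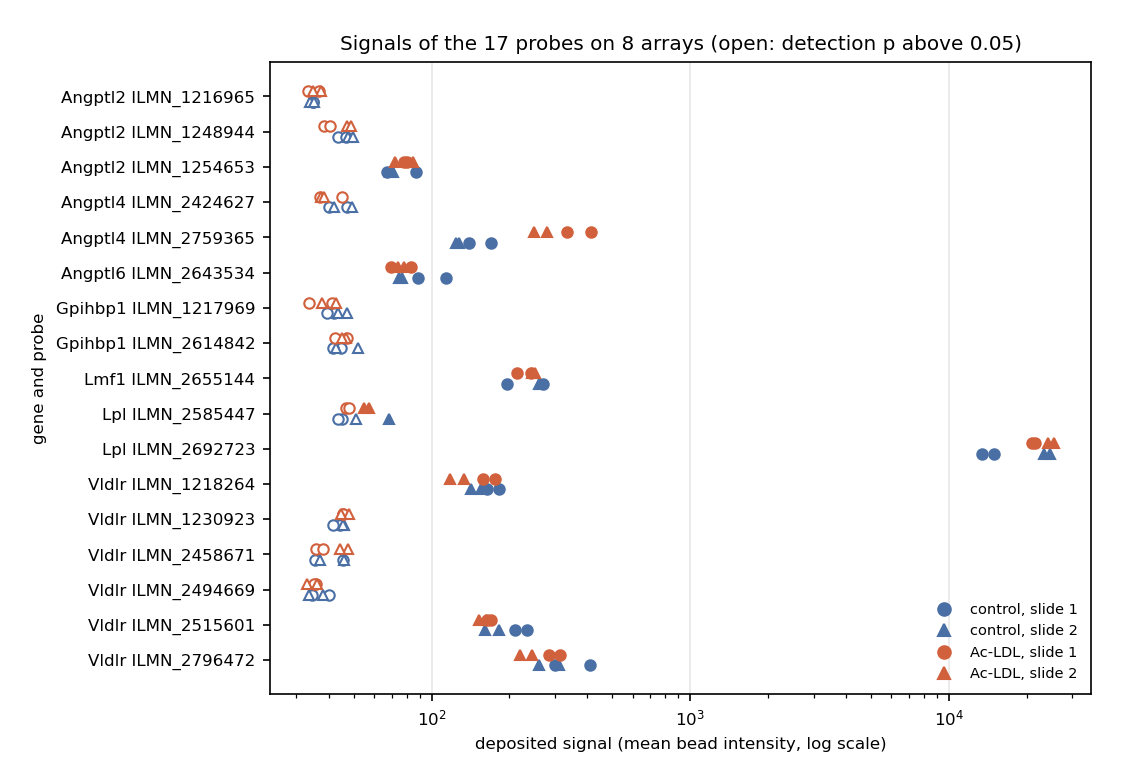
Deposited signal (mean bead intensity, log axis) of all 17 probes of the 7 genes on each of the 8 arrays, with blue for control, red for Ac-LDL, circles for slide 1, triangles for slide 2 and open symbols where the detection p was above 0.05. The 8 tested probes carry only filled symbols, while both Gpihbp1 probes and the second Angptl4 probe carry only open ones.

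Gpihbp1, the capillary anchor of the lipase, was at background on all 8 arrays with both of its probes. Its signals were 41.5 to 51.9 for ILMN_2614842 and 33.6 to 47.1 for ILMN_1217969, and the median signal of undetected probes was at most 40.8 on each array. No fold is given for it, as neither group had a measured level. The endothelial markers Pecam1, Cdh5, Tek, Emcn and Cldn5 were at background on every array, and Kdr was above it on 1 array. A probe at background does not show that a transcript is missing, since the probe of Canx, a chaperone gene that nearly all cells use, was also at background on all 8 arrays.

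Angptl4 had a second probe, ILMN_2424627, which was at background on all 8 arrays at 37.1 to 49.1. The second Lpl probe, ILMN_2585447, was above background on 3 arrays, with signals of 43.3 to 68.5 over all 8, and was not tested. For Angptl2, ILMN_1248944 and ILMN_1216965 were at background throughout at 38.4 to 49.7 and 33.2 to 37.2, as was the Vldlr probe ILMN_1230923 at 41.5 to 47.8. Every result below therefore rests on 1 probe per gene, except for Vldlr with 3, and no probe's level was set against that of another.

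Whether the RNA of the inhibitor of the lipase differed with Ac-LDL was the first question. Angptl4 was higher with Ac-LDL on every array. The deposited signals were 170, 139, 127 and 124 on the control arrays of replicates 1 to 4 and 333, 412, 280 and 248 on the Ac-LDL arrays. All 4 Ac-LDL arrays lay above all 4 control arrays, with a gap from 170 to 248. The standard error over the 28 to 49 beads of the probe was 3.92% to 5.12% of the signal on each array.

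After background correction and quantile normalization, Angptl4 averaged 6.77 ± 0.29 (SD, n = 4) in control and 8.25 ± 0.37 in Ac-LDL macrophages on the log2 scale. It rose by 1.48 (SE 0.20, 95% interval 1.04 to 1.92) with an adjusted p of 0.0484 by limma over all 17122 probes. This is a 2.78-fold increase with an interval of 2.05 to 3.78. Of the 8 tested member probes it was the only one called, and 0.00584% of all tested probes, 1 of 17122, were called higher without a block, so that Angptl4 was that probe. With the replicate block 28 probes were called higher and with the slide block 15. The exact two-sided permutation test gave p = 0.0286, the smallest that 4 arrays against 4 can give.

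The Angptl4 call is close to its threshold, and it depended on single arrays. It held in 1 of the 12 fits that left out an array or a replicate number, the one without control replicate 2 (adjusted p = 0.0458 by limma), and the other 11 reached up to 0.270, with differences of 1.33 to 1.59. The 4 differences between arrays of the same replicate number were 1.42, 1.65, 1.42 and 1.42, so the change was nearly constant although the levels were not. Within slide 1 the difference was 1.54 and within slide 2 it was 1.42. Blocking on the replicate number gave an adjusted p of 0.000679 by limma and blocking on the slide 0.000117, and Angptl4 ranked 1 of 17122 by p in both fits. Without a block it ranked 7 by p and 5 by the absolute log2 difference. In fits with the replicate block that left out each replicate number in turn, added after the data were seen, the adjusted p by limma was 0.00157 to 0.00988.

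**Figure D2:**
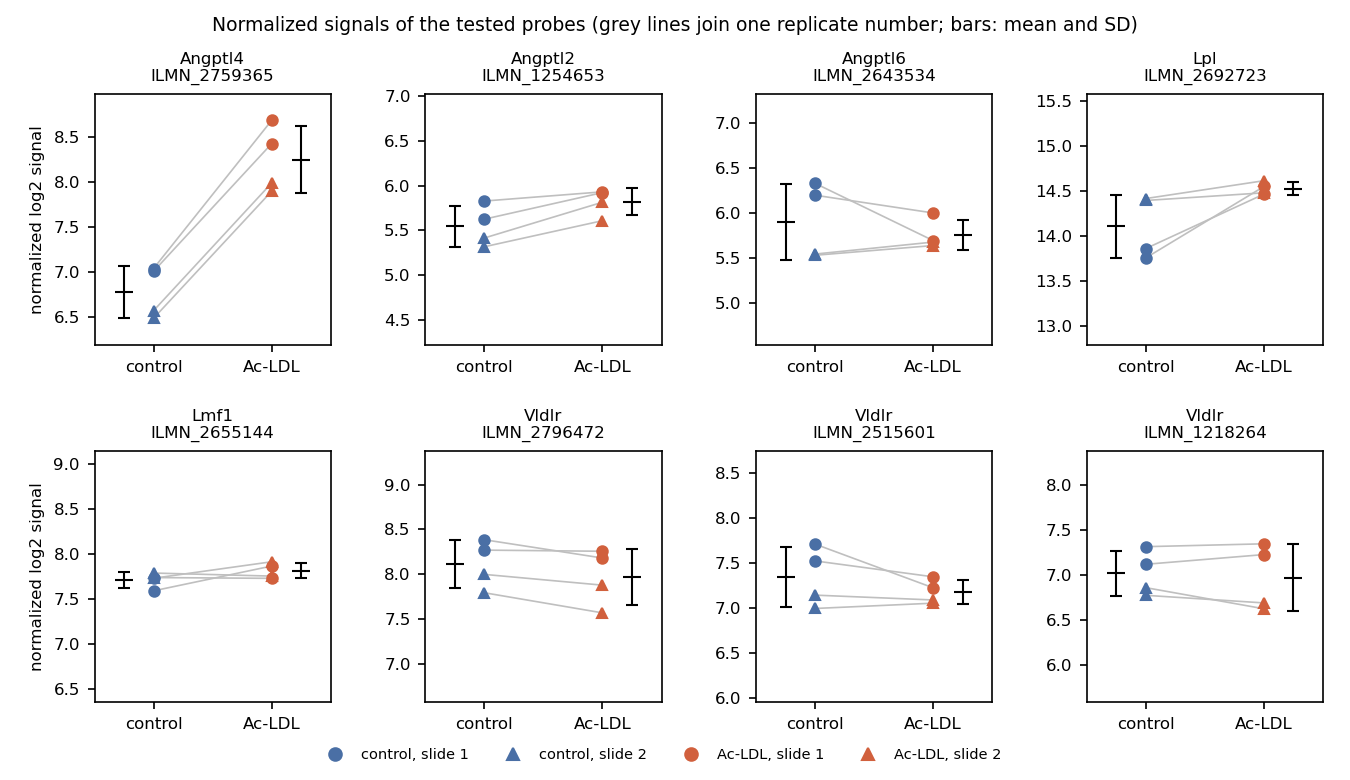
Normalized log2 signal of the 8 tested probes on each array, control at left and Ac-LDL at right, with grey lines joining arrays of the same replicate number, circles for slide 1, triangles for slide 2 and black bars for the mean and SD of 4 arrays; each panel spans the same range of log2 units. Only the Angptl4 and Lpl panels show no overlap between the groups, and in the Angptl4 panel the 4 lines run nearly in parallel.

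The lipase itself moved less. Lpl had deposited signals of 14931, 13498, 23400 and 24703 on control arrays 1 to 4 and 21616, 20953, 24191 and 25504 on Ac-LDL arrays. As deposited the groups overlapped, because the 2 controls of slide 2 were above both Ac-LDL arrays of slide 1. The brightest signal per array was 31675 to 40412, so other probes read higher than Lpl on every array. Whether signals as bright as those of Lpl are compressed was not tested.

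After normalization Lpl was 13.76, 13.86, 14.40 and 14.42 in control and 14.55, 14.47, 14.48 and 14.62 in Ac-LDL cells. All 4 Ac-LDL values then lay above all 4 control values, by 0.05 at the closest (14.47 against 14.42), and this held with each of the other 3 background corrections and normalizations tried. Among all tested probes 2.11% separated in this way with the Ac-LDL arrays higher and 1.68% with them lower, against 2 of the 8 member probes higher and 0 lower. The mean difference for Lpl was 0.42 (SE 0.16, 95% interval 0.07 to 0.77, a fold of 1.34), with an exact two-sided permutation p of 0.0286 and an adjusted p of 0.854 by limma. It was not called, nor was it with the replicate block (adjusted p = 0.210) or the slide block (adjusted p = 0.191) by limma.

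The Lpl values of the control arrays differed by slide. The 2 controls of slide 1 were at 13.76 and 13.86, the 2 of slide 2 at 14.40 and 14.42, and all 4 Ac-LDL arrays stood within 0.15 of each other (14.47 to 14.62). The difference was 0.70 within slide 1 and 0.14 within slide 2. A slide-by-treatment term, added after the data were seen, was -0.56 with an unadjusted p of 0.00544 and an adjusted p of 0.486 by limma. No probe passed that test after adjustment, and 1435 of 17122 had an unadjusted p under 0.05 by limma. With 2 arrays per group on each slide, a treatment change that differs between slides was not shown for Lpl or any other gene. This concerns the change with Ac-LDL and not the level, which differed between the slides for many probes. The cause of the slide pattern of Lpl was not tested.

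**Figure D3:**
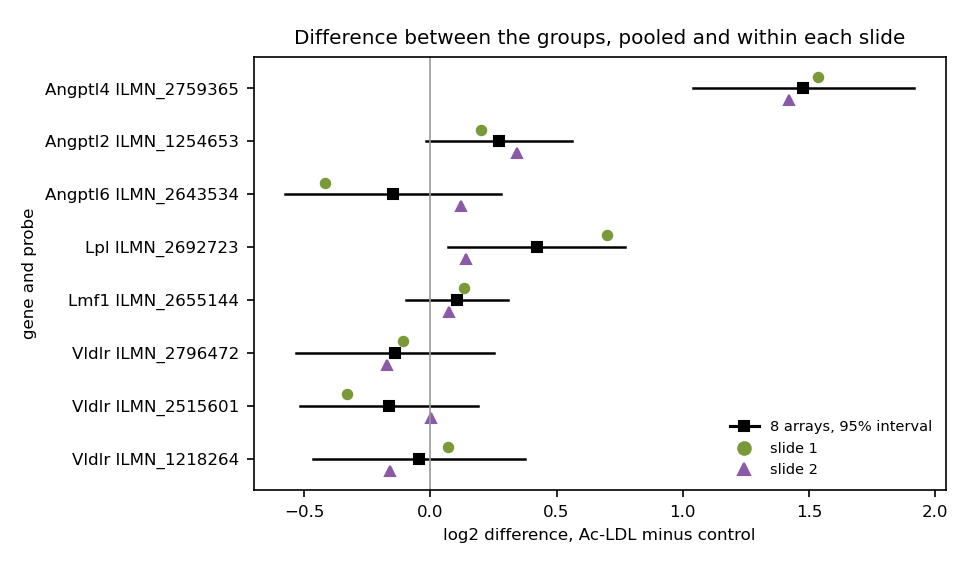
Log2 difference, Ac-LDL minus control, of the 8 tested probes, with black squares and lines for all 8 arrays and their 95% interval, green circles for slide 1 and purple triangles for slide 2. The interval of Angptl4 lies far from 0 and both slides fall inside it, that of Lpl runs from 0.07 to 0.77 with slide 1 at 0.70 and slide 2 at 0.14, and the others include 0.

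The change of the inhibitor was set against that of its enzyme array by array. The log2 change of Angptl4 exceeded that of Lpl by 1.06, with an exact two-sided permutation p of 0.0286. By replicate number the excess was 0.63, 1.04, 1.34 and 1.22. It was positive in every pair and smallest where Lpl differed most. Permuting within slides gave an exact p of 0.0556, and flipping the signs of the 4 pairs gave an exact p of 0.125, the smallest possible for 4 pairs. Under the alternatives the value was at least 0.818, with exact p values of 0.0286 to 0.125, where the fits without a replicate number cannot go below 0.1.

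Across the arrays the 2 genes did not run in step within the groups. In control cells the 2 slide-1 arrays had the higher Angptl4 and the lower Lpl, and the 2 slide-2 arrays the reverse. In Ac-LDL cells Angptl4 was again higher on slide 1 (8.43 and 8.69) than on slide 2 (7.99 and 7.90), while Lpl had 14.55 and 14.47 on slide 1 and 14.48 and 14.62 on slide 2. Because the Angptl4 values of the groups form separate clusters of 4 arrays each, no correlation over the 8 arrays is given, and groups of 4 are too small to test one.

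**Figure D4:**
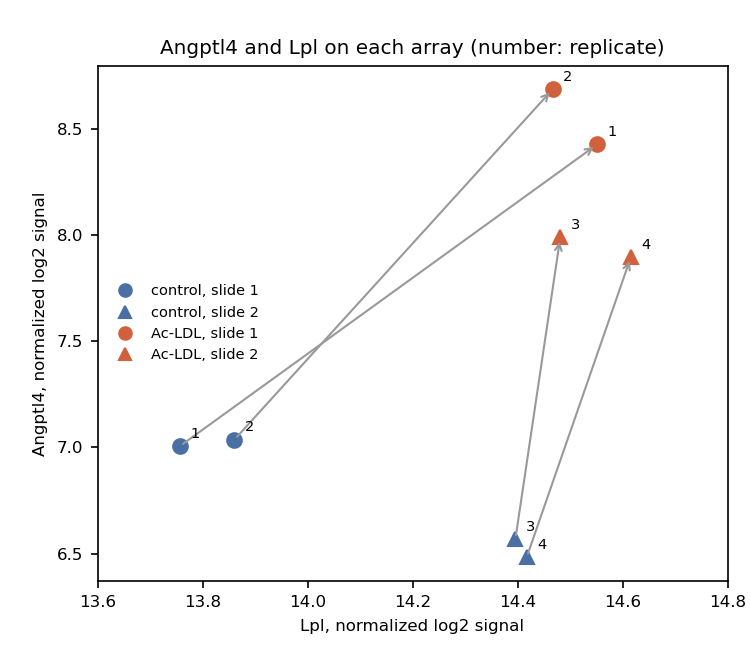
Normalized log2 signal of Angptl4 (vertical) against Lpl (horizontal) on each of the 8 arrays, with blue for control, red for Ac-LDL, circles for slide 1 and triangles for slide 2; arrows run from the control to the Ac-LDL array of the same replicate number, printed beside each point. Every arrow rises by 1.42 to 1.65 on the Angptl4 axis, while the shift on the Lpl axis is 0.80 and 0.61 on slide 1 and 0.09 and 0.20 on slide 2.

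The tested probes of the relatives of Angptl4 had signals of 67.4 to 114 over the 8 arrays. Angptl2, a secreted relative linked to inflammation, had signals of 86.7, 67.4, 71.0 and 68.9 in control and 77.8, 80.2, 84.6 and 71.9 in Ac-LDL cells. The groups overlapped as deposited and after normalization, where the means were 5.55 ± 0.23 (SD, n = 4) and 5.82 ± 0.15. The difference was 0.27 with a 95% interval of -0.02 to 0.56 and an adjusted p of 0.949 by limma. It was positive in all 4 pairs (0.10, 0.30, 0.40 and 0.29). With the replicate block the 95% interval was 0.08 to 0.46 and the adjusted p by limma was 0.225.

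Angptl6, a secreted relative known for effects on energy expenditure, went different ways on the slides. Its normalized values were 6.33, 6.20, 5.53 and 5.54 in control and 5.69, 5.999, 5.64 and 5.67 in Ac-LDL cells. The controls of slide 1 were above all other arrays, and the groups overlapped. The difference was -0.15 (95% interval -0.58 to 0.28, adjusted p = 0.987 by limma), made up of -0.42 within slide 1 and 0.12 within slide 2. The 95% intervals of both relatives lie below the 1.48 measured for Angptl4, but no difference between these genes was tested. The probes of the relatives were dim, and the processing understates folds of dim probes.

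Lmf1, the folding factor that the lipase needs before it can be secreted, was the steadiest of the genes. Its normalized values were 7.74, 7.59, 7.79 and 7.73 in control and 7.73, 7.87, 7.76 and 7.92 in Ac-LDL cells. The groups overlapped, and 2 of the 4 pairs were on each side of 0. The difference was 0.10 (95% interval -0.10 to 0.31, adjusted p = 0.979 by limma) for its 1 probe in the fit without a block.

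Vldlr, the receptor gene, had 3 tested probes, none of them called. The probe near the end of the transcript, ILMN_2796472 at base 3121 (chromosome 19, 27323946 to 27323995), had normalized values of 8.39, 8.27, 7.80 and 8.00 in control and 8.18, 8.26, 7.57 and 7.88 in Ac-LDL cells. It was lower with Ac-LDL in all 4 pairs, by 0.01 to 0.22, and the groups overlapped. The difference was -0.14 (95% interval -0.53 to 0.25, adjusted p = 0.987 by limma, and 0.488 with the replicate block). It was -0.0064 without Ac-LDL replicate 3 and -0.25 without control replicate 3.

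The overlapping Vldlr probes at the start of the transcript, printed above, gave -0.16 (95% interval -0.52 to 0.19) for ILMN_2515601 and -0.05 (-0.46 to 0.37) for ILMN_1218264. Their adjusted p values by limma were 0.983 and 0.994. Within slides the first gave -0.33 and 0.00 and the second 0.07 and -0.16, so that probes sharing 48 bases did not go the same way on slide 1.

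Most of these probes differed between the slides. In a model with both, 6 of the 8 member probes were called lower on slide 2 than on slide 1 at an adjusted p under 0.05 by limma, where 11.9% of all tested probes were lower and 11.7% higher. The probes were those of Angptl4 (-0.55, adjusted p = 0.00238), Angptl2 (-0.29, 0.0394), Angptl6 (-0.46, 0.0232) and all 3 of Vldlr (-0.46, -0.38 and -0.52). Lpl was 0.32 higher on slide 2 with an adjusted p of 0.0714 by limma, and Lmf1 0.07 higher with 0.598. Slide and replicate cannot be told apart, since each replicate number was on 1 slide only.

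The 5 probes with the course across the 8 arrays most like that of Angptl4, by Pearson's r and among all tested probes, were those of Slc22a5 (r = 0.978), a carnitine transporter gene, Gmpr (0.963), a nucleotide enzyme gene, Akr7a5 (0.962), an aldehyde reductase gene, Tmem65 (0.948) and Abcg1 (0.947), a cholesterol exporter gene. Their log2 differences between the groups were 0.12 to 0.48, all below that of Angptl4, and none was called. The 5 most like Lpl were Tbc1d22a (r = 0.986), Pbk (0.983), a mitotic kinase gene, Hibadh (0.983), an enzyme gene of valine breakdown, Cd180 (0.980), a receptor gene of the Toll-like family, and Cdc2l6 (0.975). With 8 arrays such values are common, as 33 probes exceeded 0.9 for Angptl4 and 211 for Lpl. The neighbours also share slide and group differences with the gene. Subtraction of the slide means leaves the group difference in place. The r of these probes was then 0.941 to 0.981 for Angptl4 and 0.968 to 0.983 for Lpl. Other probes ranked higher after it, and 1 and 0 of the names stayed among the first 5.

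The rest of the lipase pathway was described with 58 genes in 11 lists, of which 56 had a probe and 39 passed the filter. No gene of these lists was called by limma without a block, 8 of the 39 (20.5%) had an unadjusted p under 0.05, and 26 were higher and 13 lower (24 and 15 when scaled to the 75th percentile) with a median difference of 0.07, where over all tested probes 5.2% had such a p, 50.4% were higher and the median was 0.00. With the replicate block 2 of the 39 were called by limma (5.13%, against 0.444% of all probes), namely Apoe higher and Lrp8 lower. With the slide block 2 were called (5.13%, against 0.321%), namely Hpse higher and Lrp8 lower. The groups did not overlap for 5 genes (12.8%, against 2.11% of all probes) with the Ac-LDL arrays higher and for 0 (against 1.68%) with them lower. The lists were drawn up with earlier results of these arrays known, so these shares are no independent evidence of a pathway response. They also count only the brightest tested probe per gene, whereas the shares of all probes count every tested probe.

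Lrp8 is a receptor gene of the same family as Vldlr, and its probe was above background on 7 of the 8 arrays. Lrp8 had normalized values of 5.41, 5.33, 6.23 and 6.06 in control and 5.06, 4.72, 5.36 and 5.31 in Ac-LDL cells, lower in all 4 pairs. Its difference was -0.65, with an adjusted p by limma of 0.818 without a block, 0.0395 with the replicate block and 0.0467 when blocked by slide. For the other receptor genes of the list, Lrp1 was at -0.14, Sort1, a sorting receptor gene, at 0.41 and Sorl1 at 0.35, and none was called in any of these fits. Lsr was at background. No difference between the receptor genes was tested.

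Among the cofactors and apolipoproteins, Apoe and Apoc2 were tested. Apoe, a ligand of the receptors above, ran from 9.91 to 11.47 in control and from 10.38 to 12.19 in Ac-LDL cells, a wide overlap, yet it was higher in all 4 pairs. Its difference was 0.60, with an adjusted p by limma of 0.963 without a block and 0.0261 with the replicate block. Apoc2, the activator of the lipase, was at 0.58 and higher in all 4 pairs, but its adjusted p by limma was 0.114 with the replicate block. The probes of Apoc3, Apoc4 and Apoa5 were at background on all 8 arrays and that of Apoc1 on 6.

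Of the proteoglycan list, whose surface chains can hold the lipase, all 7 genes were tested and 3 were higher (2 when arrays were scaled to their 75th percentile). Sdc3, a syndecan gene, had the largest difference at 0.56 and was not called in any of the 3 fits. Hpse, the gene of heparanase, which cuts these chains, was at 7.60 ± 0.63 (SD, n = 4) in control and 8.10 ± 0.55 in Ac-LDL cells. It was higher in all 4 pairs, and its difference of 0.50 had an adjusted p by limma of 0.0488 with the slide block and 0.0529 with the replicate block.

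Of the folding and quality control genes that work with Lmf1, 4 were tested and 3 were higher, led by the chaperone genes Calr at 0.47 and Pdia4 at 0.35. Both had all Ac-LDL arrays above all control arrays, and neither was called in any fit. Of the convertases, which cleave the lipase and the angiopoietin-like proteins, Pcsk6 was at -0.12 and Furin at -0.04. Among the receptors of angiopoietin-like proteins, Itgav was at 0.16 and Itga5 at -0.13. Of the other angiopoietin-like genes only Angptl7 was tested (0.10), and the lipase genes Lipc and Lipg were at background on all 8 arrays.

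In the list of regulators of Angptl4, none of the 5 tested genes was called in any fit. Epas1 was at 0.26 and Hif1a at 0.17, both genes of hypoxia factors, while the PPAR genes Pparg and Ppard were at -0.11 and -0.07, and Rxra was at 0.07. The probes of Ppara and Nr3c1 were at background on all 8 arrays. All 5 tested genes of the list of other PPAR targets were higher, with a median of 0.32, under each background correction and normalization tried, but the list was drawn up with earlier results of these arrays known, so its direction is no independent evidence. The largest differences were those of Acaa2, an enzyme gene of fatty acid oxidation, at 0.40 and Slc25a20, a mitochondrial carnitine carrier gene, at 0.37, and neither was called in any fit (adjusted p of Acaa2 by limma with the replicate block 0.153). Fatty acid uptake genes were led by Slc27a1 at 0.39 and Cd36, a scavenger receptor gene, at 0.38, the latter above background on 6 arrays, and neither was called.

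**Figure D5:**
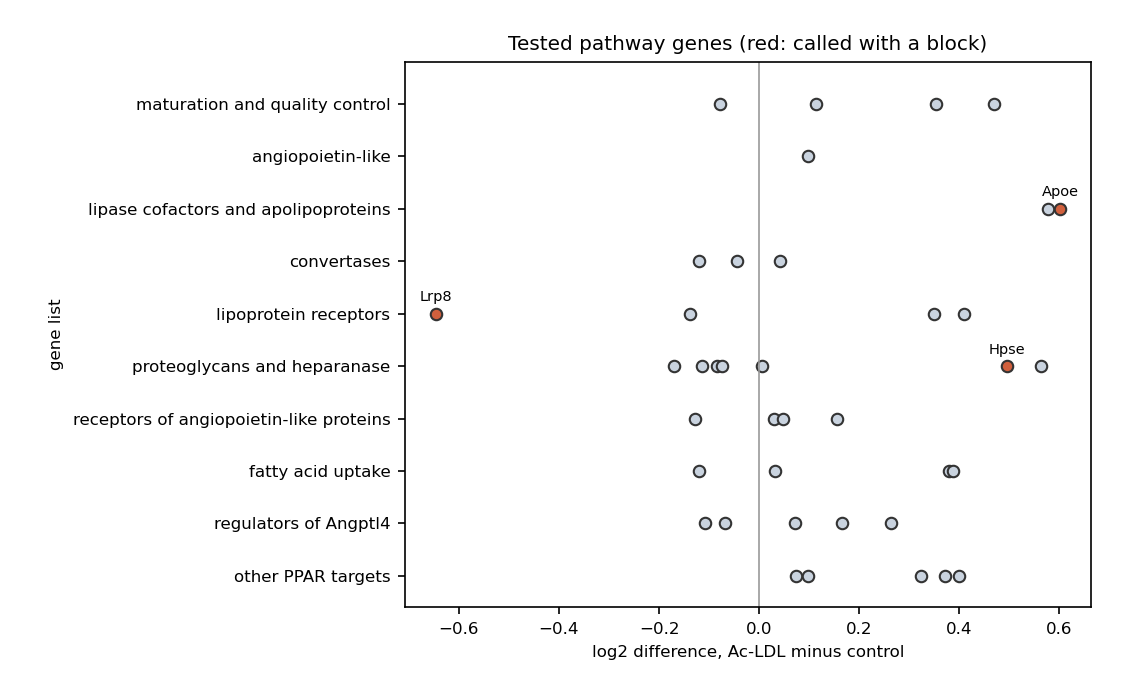
Log2 difference, Ac-LDL minus control, of the 39 tested genes of the pathway lists, 1 point per gene and 1 row per list, with red points for genes called by limma with the replicate or the slide block. Lrp8 lies at the left and Apoe and Hpse at the right, and Angptl4 at 1.48 would lie beyond the right edge.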

How the data were processed

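Total RNA of the 8 cultures had been labelled and hybridized to Illumina MouseWG-6 v2.0 bead arrays. The authors deposited for each probe and array the intensity averaged over beads, neither background-subtracted nor normalized as far as its values show, with a bead standard error and bead number. The deposited detection p-value places each probe among the negative controls of the same array, in steps that fit 936 controls. BeadStudio is named in the submitters' processing notes, with no version. The authors' own normalized values were not used here.

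Signals were processed in R 4.3.3 with limma 3.58.1. Background was corrected by normexp with controls inferred from the detection p-values (offset 16), followed by quantile normalization and log2 (neqc), which understates folds of dim probes. Probes with a detection p of at most 0.05 on at least 4 of 8 arrays were tested, with lmFit and eBayes and Benjamini-Hochberg adjustment over all 17122. A probe was called at an adjusted p under 0.05. The procedure was tested on simulated data. Exact permutation tests used all 70 assignments of the arrays. Alternatives were blocks for replicate number and slide, no background correction, an offset of 50, a shift to the 75th percentile, no filter and a stricter filter, an intensity trend, the methods' t-test and leaving out arrays. Gene symbols were those of the deposited annotation, and all 7 were found in a RefSeq gene table.

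Arrays of the same replicate number shared deviations from their group means, with correlations across probes of 0.579, 0.479, 0.468 and 0.629, and of 0.343, 0.429, 0.447 and 0.188 with the other number on the slide. For replicates 2 and 3 the first correlation was only slightly above the second. The numbers were taken as pairs in the pair differences, the sign flips and the fits with the replicate block. The main fit and the exact tests over all assignments of the arrays did not use the pairs. Their p-values rest on a spread that includes level differences between replicates and slides. With the replicate block the p-values rest on the spread of the differences within pairs. The number of arrays limits the precision.

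The genes and lists were chosen with earlier results of these data known. Named were all members, the list genes called in any of the 3 models, the 2 genes of each list with the largest difference, the 5 most like Angptl4 and the 5 most like Lpl, and the brightest and the undetected cell markers. List genes were read from their brightest tested probe, and 1 list gene is not reported here.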

Additional observations from a re-analysis of the deposited data

Results flagged for a closer look

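The Ac-LDL array of replicate 2 stood apart from the other Ac-LDL arrays for Angptl6, at 5.9989 against 5.64 to 5.69. The gap was 0.848 of the range of the 4 arrays. Among the 16 groups of arrays examined for the member probes, chance would give about 0.8 such gaps.

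The change of Angptl6 was 0.54 higher on slide 2 than on slide 1, where both pairs went down on slide 1 and both up on slide 2. The interaction by limma had an unadjusted p of 0.0150 and an adjusted p of 0.531, and it was not called.

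The change of the Vldlr probe ILMN_1218264 was -0.23 on slide 2 relative to slide 1, with both pairs up on slide 1 and both down on slide 2. The interaction had an adjusted p of 0.737 by limma and was not called. The cause of these slide differences was not tested.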

How the results depend on the processing

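The direction of Angptl4 held under all 21 alternatives, with the replicate and slide blocks keeping the call, as did no background correction, the percentile shift and the trend. Leaving out arrays gave differences of 1.33 to 1.59. The call was lost with an offset of 50 (1.24, adjusted p = 0.0507 by limma) and without a filter (1.48, 0.335). It was also lost with the stricter filter (1.48, 0.0551) and by the methods' t-test after adjustment (1.48, 0.437). The unadjusted p of that t-test, 0.000759, and the fold pass the limits in the paper's results, set there for values normalized otherwise. Member probes called were then 0 in these 4 settings in place of 1, and 0 to 1 without single arrays or replicates. Over all genes 7 probes were called (1 higher, 6 lower, 891 at an unadjusted p under 0.05), against 76 with the replicate block, 55 with the slide block, 14 with the percentile shift, 15 with the trend, 0 without a filter and 0 by the methods' t-test (1039 at an unadjusted p under 0.05), and 0 to 15 without single arrays or replicates. Pathway genes called went from 0 to 2 with either block. The excess of the Angptl4 over the Lpl change was 1.06 with the replicate block (exact p = 0.125) and the slide block (exact p = 0.0556), 0.875 without background correction (exact p = 0.0571), 0.818 with an offset of 50 (exact p = 0.0857) and 1.02 with the percentile shift (exact p = 0.0571), and 0.856 to 1.251 without single arrays or replicates. Of the 5 names most like Angptl4, 3 were kept with Spearman's rho and 1 after subtraction of slide means, and of those most like Lpl 1 and 0, while the rho of all 10 stayed at 0.833 or above and their r after the subtraction at 0.941 or above. Without single arrays or replicates the sign turned for Vldlr ILMN_1218264 (-0.17 to 0.071) and Angptl6 (-0.27 to 0.0147). No other member probe turned or changed its call under any alternative. A second probe of Angptl4 or Lpl could not be used, as they were above background on 0 and 3 arrays, under the filter of 4. The fits with an added slide-by-treatment term, and with the replicate block without each number, were chosen after seeing the data. The cause of the lost calls was not tested.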

Other observations

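Angptl7, a further relative of Angptl4 and the only one of its list above background on all 8 arrays, varied far more between replicates than between the groups. Its signals were 664, 248, 2546 and 1683 on control arrays 1 to 4 and 630, 328, 2125 and 1300 on Ac-LDL arrays. Each replicate number kept its place in both groups, with slide 2 above slide 1 throughout. The treatment difference was 0.10 with an SE of 0.73 in the fit without a block, which includes the spread between replicates.

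Among the macrophage markers, Mertk, a receptor gene for the uptake of dying cells, was 0.56 higher with Ac-LDL. It was called with the replicate block (adjusted p = 0.0364 by limma) and neither without it (0.817) nor with the slide block (0.166). The list as a whole did not go one way, with a median of 0.05, Csf1r at -0.02 and Cd14 at -0.48, the last lower in all 4 pairs and not called in any fit.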
